A study of Homo sapiens with 6 samples.

Results

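The transcripts described are those of 33 human genes of mitochondrial and peroxisomal fatty acid oxidation, picked by name out of the 58302 genes in the deposited table. They cover the carnitine system, the acyl-CoA dehydrogenases with the electron transfer flavoprotein, the mitochondrial hydratases to thiolases, the isomerases and reductases for unsaturated chains, peroxisomal beta-oxidation and the receptors *PPARA* and *PPARD*. RNA-seq was done on 6 libraries from cells labelled A549, a human lung adenocarcinoma line, although the design text of the series calls the profiles retinal. One group of 3 libraries came from DMSO-treated cells (the solvent alone), and a second group of 3 from cells exposed to S541 (5n) at 1.0 µM, both for 48 h. No genotype or other agent distinguishes the groups in the labels. RNA was extracted separately per group, per the labels' protocols, so effects of extraction and of treatment cannot be told apart. Whether replicates came from independent cultures is unstated, so a p-value reflects only the spread among these libraries.

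Long-chain fatty acids enter mitochondria as carnitine esters, which CPT1 makes at the outer membrane and CPT2 turns back into acyl-CoA at the inner membrane. Each turn of beta-oxidation then dehydrogenates, hydrates, dehydrogenates again and cleaves the chain to release acetyl-CoA, and electrons from the first step pass through the electron transfer flavoprotein. Peroxisomes shorten very long and branched chains with their own enzymes, and the PPAR nuclear receptors activate many of these genes when fatty acids bind them.

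Total counts ranged from 13956648 to 17044139 per library. DMSO replicate 2 and S541 replicate 3 stood apart from the other libraries on the second principal component of log2 CPM (counts scaled to a common library size), which held 21.4% of the variance. Of the markers of the labelled line, the keratins *KRT8* (88.0 to 129 FPKM) and *KRT18* (93.8 to 154 FPKM) were abundant in every library, and both fell in S541, by 0.50 and 0.63 on the log2 scale (edgeR quasi-likelihood test, adjusted p = 0.0124 and 0.0075). Without S541 replicate 1 or 2 the adjusted p of *KRT8* was 0.0642 or 0.0631 in edgeR. *EPCAM* was at 1.88 to 2.76 FPKM and *AKR1C1* at 1.39 to 4.84 FPKM, and *KRT19*, *CDH1* and *AKR1B10* were each under 1 FPKM throughout. Among genes looked up after values had been seen, the keratin *KRT7*, common in lung adenocarcinoma, was at 163 to 236 FPKM. By contrast *ALDH1A1*, an abundant enzyme of A549, was at 0 in 5 of 6 libraries, and *CDKN2A*, which is deleted in A549, was at 14.7 to 31.8 FPKM. The levels of *CDKN2A* and *ALDH1A1*, and the low levels of the listed markers *KRT19*, *CDH1* and *AKR1B10*, go against the label. The cells are therefore called by their label only. The immune markers *PTPRC* and *CD3E* were at or near 0. The 4 fibroblast markers summed to 38.5, 57.8 and 40.2 CPM in DMSO and 37.0, 31.5 and 33.4 CPM in S541. *COL1A1* made up most of each sum. Among these markers *PDGFRB* fell by 0.96 on the log2 scale (edgeR quasi-likelihood test, adjusted p = 0.0490). It was at 6.07, 8.40 and 5.20 CPM in DMSO and 3.01, 2.94 and 4.14 CPM in S541. *COL1A1* and *COL3A1* did not pass, and *DCN* was too low to test. The part of other cells in the results was not tested. In bulk RNA, fewer cells of a type and less RNA per cell cannot be told apart.

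The sequences shown are the 250 bases before the RefSeq start sites (GRCh38.p14) of the 2 members that fell, *HADH* and *AMACR*, and of *HADHA* and *HADHB*, the subunits of one enzyme, whose genes lie head to head. Each is written 5′ to 3′ on the strand of its gene. Capitals mark the GC box GGGCGG, the letters that Sp1-family factors recognise, on either strand. The regions are chr4:107989639-107989888 (plus strand) for *HADH*, chr5:34008051-34008300 (minus strand) for *AMACR*, chr2:26244633-26244882 (minus strand) for *HADHA* and chr2:26244689-26244938 (plus strand) for *HADHB*.
HADH: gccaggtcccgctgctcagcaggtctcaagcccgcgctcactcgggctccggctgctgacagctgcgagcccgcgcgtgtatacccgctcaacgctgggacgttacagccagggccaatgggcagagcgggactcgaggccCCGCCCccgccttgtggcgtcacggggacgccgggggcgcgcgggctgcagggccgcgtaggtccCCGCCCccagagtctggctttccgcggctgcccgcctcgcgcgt
AMACR: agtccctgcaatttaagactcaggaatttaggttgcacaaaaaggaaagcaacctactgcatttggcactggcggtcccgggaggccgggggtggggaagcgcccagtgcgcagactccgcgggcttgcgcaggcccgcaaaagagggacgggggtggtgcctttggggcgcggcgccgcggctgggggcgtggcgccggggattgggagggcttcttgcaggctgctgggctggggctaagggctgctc
HADHA: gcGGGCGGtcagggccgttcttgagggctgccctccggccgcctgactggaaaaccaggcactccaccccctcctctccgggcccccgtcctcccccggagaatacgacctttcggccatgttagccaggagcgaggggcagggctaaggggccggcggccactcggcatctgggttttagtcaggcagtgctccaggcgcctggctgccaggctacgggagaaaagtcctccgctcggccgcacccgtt
HADHB: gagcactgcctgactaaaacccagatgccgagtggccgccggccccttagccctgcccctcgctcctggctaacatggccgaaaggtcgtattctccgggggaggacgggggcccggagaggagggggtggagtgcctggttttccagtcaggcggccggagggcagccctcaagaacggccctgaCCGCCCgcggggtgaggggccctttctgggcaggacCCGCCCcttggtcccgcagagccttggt

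The *HADH* sequence held 2 GC boxes, that of *AMACR* none, that of *HADHA* 1 and that of *HADHB* 2. The start sites of *HADHA* and *HADHB* are 307 bases apart, and their printed sequences share 194 bases, read from opposite strands. The *HADHA* box and the *HADHB* box farther from its start are the same bases, so that site lies in the windows of both genes. Over the whole RefSeq windows (250 bases before to 50 after a start), 27 of the 33 members were matched by symbol, with 36 windows. *ACAA1*, *CRAT*, *DECR1*, *DECR2*, *EHHADH* and *ETFDH* had no window and were not searched. A GC box was in 28 of these 36 windows (77.8%), against 45.0% of all 35116 windows. The nuclear receptor half-site AGGTCA was in none of the 36, against 13.8% of all windows. A direct repeat of AGGTCA with 1 base between the copies, a form of the PPAR element, was in none, against 0.0228% of all windows, and the ERR element TCAAGGTCA was in none, against 0.353%. All motifs were searched on both strands, and the repeat and the ERR element contain the half-site. An absent motif says only that these letters are not in these windows.

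To compare levels between genes, CPM were divided by the kilobases of merged GENCODE 29 exons. Transcripts of the short-chain hydratase *ECHS1* were the most abundant, at 164 ± 18.9 CPM per kb in DMSO and 142 ± 10.6 in S541 (SD, n = 3). The very-long-chain dehydrogenase *ACADVL* followed at 75.7 ± 8.46 and 73.0 ± 5.23 CPM per kb. The alpha subunit of the trifunctional protein, *HADHA*, came next at 52.7 ± 0.440 and 46.8 ± 1.96 CPM per kb. These 3 genes kept ranks 1 to 3 in both groups, and their ranges over the DMSO libraries did not overlap.

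At the low end, the peroxisomal bifunctional enzyme *EHHADH* was at 0.369 ± 0.144 CPM per kb in DMSO and *PPARA* at 0.650 ± 0.0899. *ACADL*, the long-chain dehydrogenase, had 0 counts in all 6 libraries, which allows up to 3 counts in each (counting error only), and was not tested. The other 27 members lay between, and 21 of the 31 pairs of neighbours in the DMSO order had overlapping ranges. Among the members in the order after *HADHA*, *ECI1*, *ETFA*, *CPT1A*, *HADHB*, *ACAA2*, *ACAD9* and *ACAT1* had mean DMSO levels of 38.2 down to 22.3 CPM per kb. Of these, only *ETFA* with *CPT1A*, and *CPT1A* with *HADHB*, were neighbours whose DMSO ranges did not overlap.

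**Figure D1:**
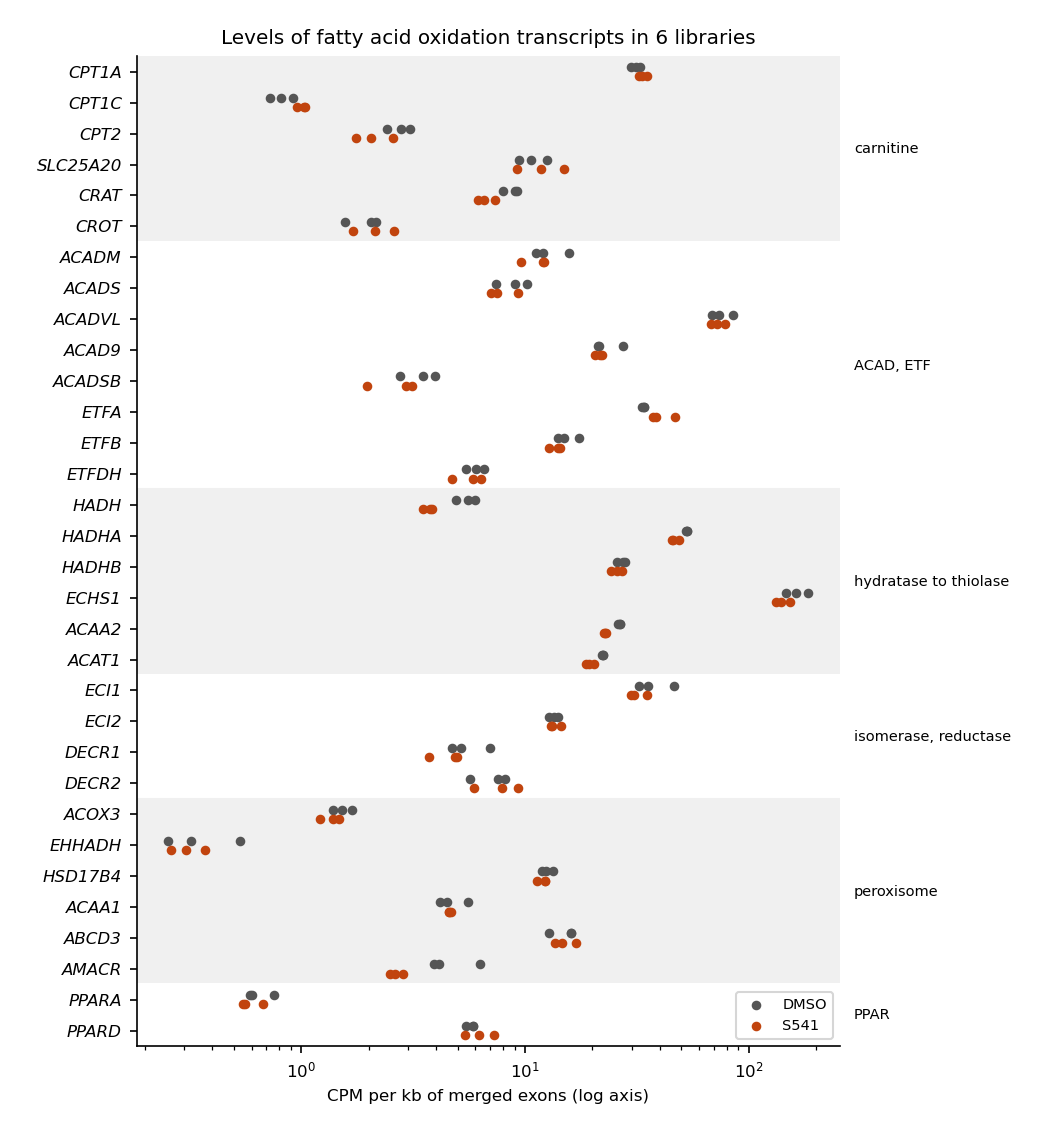
Level of each tested member in each library, as CPM per kb of merged exons on a log axis, with DMSO libraries in grey and S541 libraries in orange and members grouped by role (ACADL, at 0, is not drawn). ECHS1 lies highest and EHHADH lowest, and for most members the points of the groups overlap.

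After S541, *HADH* and *AMACR* fell and no member rose, among 32 members that passed the filter on low counts. A gene is said to rise or fall where its adjusted p-value was under 0.05 in the edgeR quasi-likelihood test over 15847 genes. Of all tested genes 8.19% changed, 4.17% lower and 4.02% higher, so 2 of 32 members is no larger a share than the background. At an unadjusted p under 0.05 there were 8 members, 1 higher and 7 lower, which is 25% of those tested against 24.8% of all genes. The libraries of the groups did not overlap for 8 members, 2 higher and 6 lower, again 25%, against 31.1% of all genes. The median log2 fold change over the 32 members was −0.14, with 23 below 0, against a median of −0.002 over all genes, 50.2% of them below 0. Without DMSO replicate 2 the median over the members was −0.09, with 21 below 0.

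For 21 of the 32 members (65.6%, against 47.4% of all genes) the 95% interval of the fold change lay within 1.5-fold in either direction. In simulated data, the same test recovered 15.2% of genes changed 1.5-fold and 67.2% of those changed 2-fold. The simulation changed 66 and 67 genes by these folds, drawn from all tested genes, where 1298 genes were called in the data. Its shares need not hold for the members. A change of 1.5-fold or less could still have been missed in these libraries. Summed over all members, levels were 2594, 2839 and 2657 CPM in DMSO and 2465, 2542 and 2568 CPM in S541. Every S541 sum was below every DMSO sum. Of the roles, only the mitochondrial hydratases to thiolases had sums without overlap, at 902, 979 and 932 CPM in DMSO and 782, 812 and 847 CPM in S541. The sums of every other role overlapped between the groups.

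**Figure D2:**
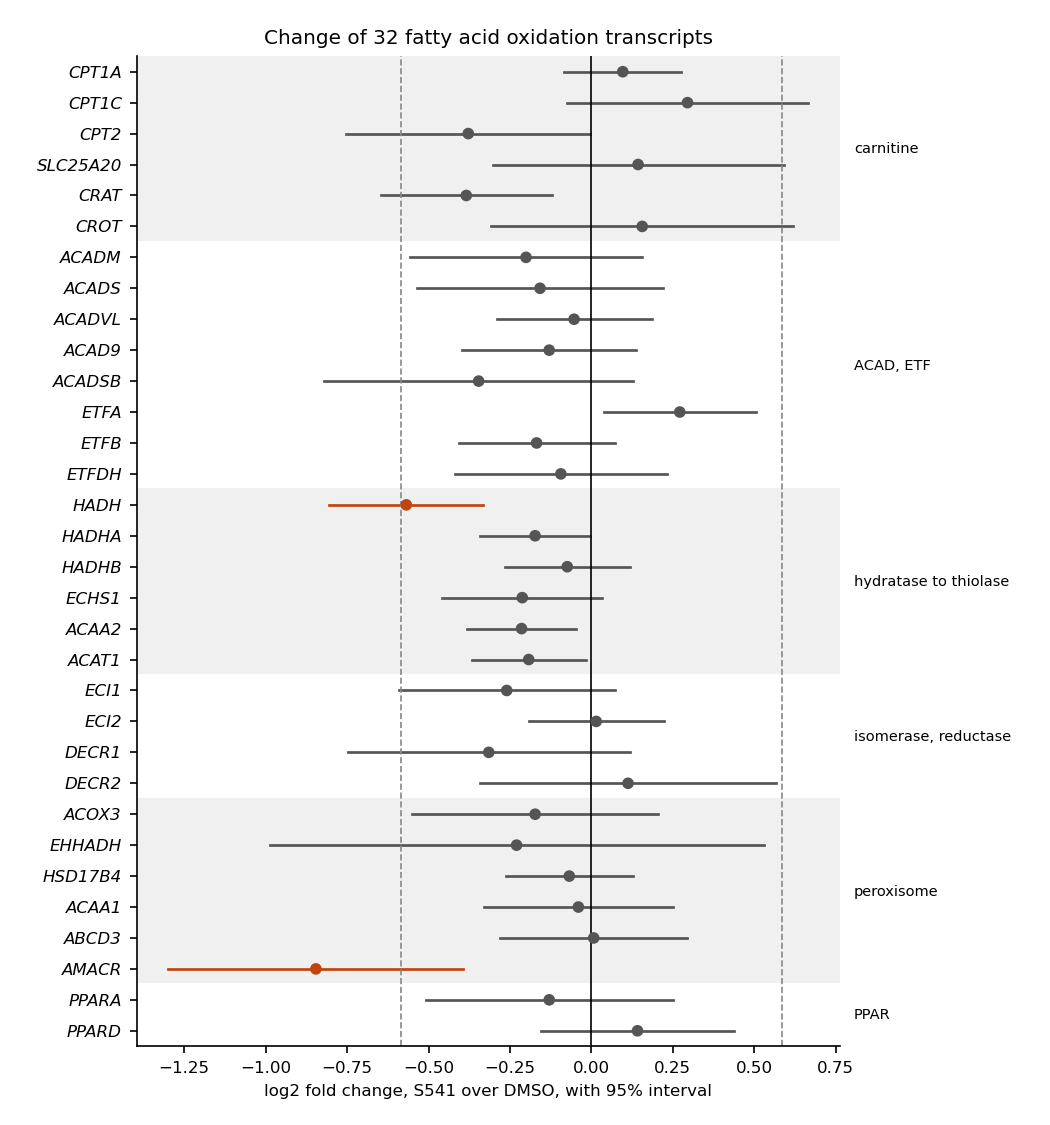
Log2 fold change of S541 over DMSO for each tested member (points) with its 95% interval (bars), grouped by role, with orange for an adjusted p under 0.05 and dashed lines at 1.5-fold. HADH and AMACR are the members in orange, and 21 intervals lie wholly between the dashed lines.

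In the carnitine system, 0 of 6 members rose or fell. *CPT1A*, the liver-type CPT1 that controls entry of long chains into mitochondria, was the most abundant of them, at 197, 215 and 207 CPM in DMSO and 211, 219 and 230 CPM in S541. The groups overlapped, and the log2 fold change was 0.10 ± 0.08 (SE), with a 95% interval from −0.08 to 0.28. *CRAT*, which exchanges short acyl groups between CoA and carnitine, was at 30.4, 35.0 and 34.3 CPM in DMSO and 23.6, 24.8 and 28.0 CPM in S541. All S541 libraries were below all DMSO libraries, yet the log2 fold change of −0.38 ± 0.11 (SE) missed the threshold (edgeR, adjusted p = 0.080). *CPT2* was at 29.1, 32.1 and 25.4 CPM in DMSO and 18.4, 21.3 and 26.9 CPM in S541. S541 replicate 3 lay inside the DMSO range, and the log2 fold change was −0.38 ± 0.16 (SE; edgeR, adjusted p = 0.198). Of the *CPT2* exon bases, 11.96% are shared with genes of the opposite strand, and the sources used here do not give whether counting used strand.

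The remaining carnitine genes were the brain-type *CPT1C* at 0.29, the carnitine-acylcarnitine carrier *SLC25A20* at 0.14 and the peroxisomal octanoyltransferase *CROT* at 0.16 on the log2 fold change scale, and their adjusted p-values were above the threshold. *CPT1C* was low, at 4.25 to 5.40 CPM in DMSO, and all its S541 libraries were higher, at 5.62 to 6.10 CPM. The ratio of *CRAT* to *CPT1A* counts, chosen after the values were seen, was 0.155, 0.163 and 0.166 in DMSO and 0.111, 0.113 and 0.122 in S541. These ratios did not overlap, and the 2-sided exact permutation p was 0.1, the smallest that 3 against 3 libraries allow. The ratios *HADH* to *HADHA*, *HADHA* to *HADHB*, *CPT2* to *CPT1A* and *AMACR* to *ACOX3*, chosen likewise, gave the same p in that test. As the pairs were picked with the values known, no support is drawn from these p-values.

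**Figure D3:**
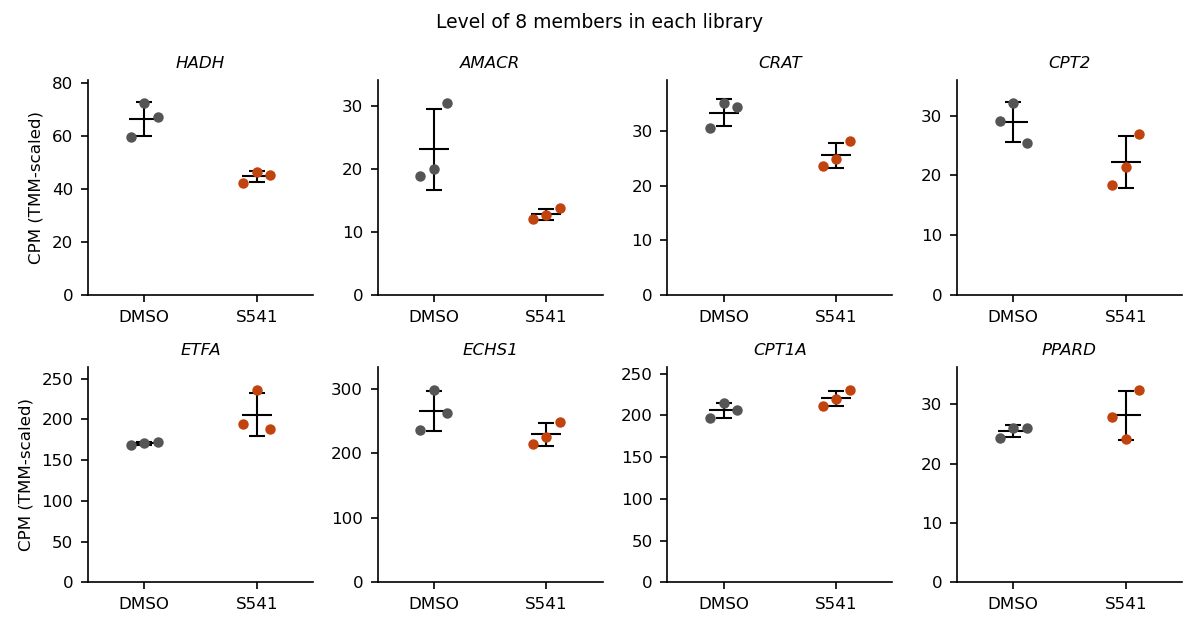
CPM of 8 members in each library (points), with the mean and SD of each group of 3 as black bars, on axes that start at 0. For HADH, AMACR, CRAT and ETFA the groups do not overlap, and for CPT2, ECHS1, CPT1A and PPARD they do.

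Among the acyl-CoA dehydrogenases and the electron transfer flavoprotein, 0 of 8 tested members rose or fell. *ACADVL*, which starts the oxidation of long chains, was at 333, 414 and 358 CPM in DMSO and 351, 332 and 382 CPM in S541. The groups overlapped, and the log2 fold change was −0.05 ± 0.10 (SE), with a 95% interval from −0.29 to 0.18. *ACADSB*, which acts on short branched acyl-CoA, had the largest change of the group in size. It was at 24.8, 17.3 and 21.8 CPM in DMSO and 19.6, 18.3 and 12.3 CPM in S541, with overlap between the groups and a log2 fold change of −0.35 ± 0.21 (SE; edgeR, adjusted p = 0.347).

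*ETFA*, the alpha subunit of the flavoprotein that takes electrons from these enzymes, was at 169, 171 and 172 CPM in DMSO and 194, 236 and 188 CPM in S541. All S541 libraries were above all DMSO libraries, with a log2 fold change of 0.27 ± 0.10 (SE; edgeR, adjusted p = 0.146). Its partner *ETFB* was at 92.0, 113 and 97.9 CPM in DMSO and 83.8, 91.9 and 94.1 CPM in S541, with a log2 fold change of −0.17. The ratio of *ETFA* to *ETFB* counts, chosen after the values were seen, was 1.83, 1.51 and 1.76 in DMSO and 2.31, 2.56 and 2.00 in S541. Every S541 ratio was above every DMSO ratio (2-sided exact permutation p = 0.1, the smallest possible). All ratios chosen in this way gave that p, so it is not read as support. The other dehydrogenases, *ACADM* for medium and *ACADS* for short chains and *ACAD9*, which also serves complex I assembly, had log2 fold changes of −0.20, −0.16 and −0.13. *ETFDH*, which passes the electrons on to ubiquinone, had −0.09. For 7 of these 8 members the 95% interval lay within 1.5-fold, and the exception was *ACADSB*.

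Of the mitochondrial hydratases, hydroxyacyl-CoA dehydrogenases and thiolases, 1 of 6 members changed, and all 6 had a log2 fold change below 0. *HADH* (ENSG00000138796, chromosome 4, 107989714 to 108035175, hg38) encodes the dehydrogenase for medium- and short-chain hydroxyacyl-CoA. It was at 59.6, 72.4 and 67.1 CPM in DMSO and 42.4, 46.5 and 45.3 CPM in S541. All S541 libraries were below all DMSO libraries. *HADH* fell by 0.57 ± 0.10 on the log2 scale (SE; edgeR, adjusted p = 0.018), that is to 0.674 of the DMSO level, with a 95% interval of 0.572 to 0.795. Leaving out DMSO replicate 3 or any one S541 library ended the call, with adjusted p-values in edgeR of 0.0578 to 0.0855, while the log2 fold change stayed between −0.64 and −0.50 over the 6 such fits.

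The trifunctional protein acts on long chains at the inner membrane. Its subunit *HADHA* was at 229, 233 and 232 CPM in DMSO and 199.9, 200.4 and 215 CPM in S541, with no overlap and a log2 fold change of −0.17 ± 0.07 (SE; edgeR, adjusted p = 0.194). *HADHB*, whose start lies beside that of *HADHA* in the printed sequences, was at 117, 120 and 110 CPM in DMSO and 104, 110 and 116 CPM in S541. These groups overlapped, and the log2 fold change was −0.07 ± 0.08 (SE). Processed pseudogenes of *HADHA* had at most 11 counts in a library.

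*ECHS1*, which hydrates short enoyl-CoA, was at 237, 298 and 263 CPM in DMSO and 214, 226 and 248 CPM in S541. The groups overlapped because S541 replicate 3 lay above DMSO replicate 1, and the log2 fold change was −0.21 ± 0.11 (SE; edgeR, adjusted p = 0.266). The thiolase *ACAA2*, which cleaves the chain, was at 135, 132 and 135 CPM in DMSO and 117, 116 and 114 CPM in S541. *ACAT1*, the acetoacetyl-CoA thiolase that also serves ketone bodies, was at 124, 124 and 125 CPM in DMSO and 104, 113 and 109 CPM in S541. Both thiolases had no overlap and little spread, with log2 fold changes of −0.21 ± 0.07 and −0.19 ± 0.08 (SE), and both missed the threshold (edgeR, adjusted p = 0.113 and 0.165). Within this role 4 of 6 members had no overlap, all lower in S541, where 15.2% of all tested genes did. The 6 members summed to 902, 979 and 932 CPM in DMSO and 782, 812 and 847 CPM in S541.

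Of the isomerases and reductases that unsaturated chains need, 0 of 4 changed. *ECI1*, the mitochondrial enoyl-CoA isomerase, was the most abundant of them, at 104, 151 and 115 CPM in DMSO and 99.3, 96.6 and 113 CPM in S541. The groups overlapped through S541 replicate 3, and the log2 fold change was −0.26 ± 0.14 (SE; edgeR, adjusted p = 0.313). *DECR1*, the mitochondrial dienoyl-CoA reductase, was at 24.6, 16.5 and 18.1 CPM in DMSO and 17.03, 17.5 and 13.1 CPM in S541. The groups overlapped, and its log2 fold change of −0.32 ± 0.19 (SE) had an adjusted p of 0.349 (edgeR). The isomerase *ECI2* and the peroxisomal reductase *DECR2* had log2 fold changes of 0.01 and 0.11, and 29.8% of *ECI2* exon bases are shared with genes of the opposite strand.

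In peroxisomal beta-oxidation, 1 of 6 members changed. *AMACR* (ENSG00000242110, chromosome 5, 33986178 to 34008108, hg38) encodes the racemase that prepares branched chains and bile acid intermediates. It was at 19.0, 19.98 and 30.5 CPM in DMSO and 12.1, 12.7 and 13.8 CPM in S541. All S541 libraries were below all DMSO libraries, and DMSO replicate 3 was higher than the other libraries. *AMACR* fell by 0.85 ± 0.20 on the log2 scale (SE; edgeR, adjusted p = 0.040), that is to 0.556 of the DMSO level, with a 95% interval of 0.407 to 0.761. Without DMSO replicate 3 the log2 fold change was −0.59 and the adjusted p 0.0866, and without S541 replicate 1, 2 or 3 the adjusted p in edgeR was 0.127, 0.134 or 0.090. Of its exon bases, 64.8% are shared with the readthrough gene *C1QTNF3-AMACR*, listed at 0 in every library, or a processed pseudogene on the same strand, so its counts depend on how shared reads were assigned.

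*ABCD3*, which carries acyl-CoA into peroxisomes, was the most abundant peroxisomal member. It was at 122, 96.9 and 122 CPM in DMSO and 111, 128 and 103 CPM in S541. The groups overlapped, and the log2 fold change was 0.01 ± 0.12 (SE), with a 95% interval from −0.28 to 0.29. *HSD17B4*, the bifunctional enzyme for branched chains, had a log2 fold change of −0.07, the thiolase *ACAA1* −0.04, the branched-chain oxidase *ACOX3* −0.17 and *EHHADH* −0.23. *EHHADH* had 19 to 37 counts in a library, and its 95% interval ran from −0.99 to 0.53.

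The fatty acid receptors did not pass the test, 0 of 2. *PPARD* was the more abundant, at 24.4, 26.0 and 26.0 CPM in DMSO and 27.9, 24.1 and 32.3 CPM in S541. S541 replicate 2 was the lowest of all 6 libraries and S541 replicate 3 the highest, with a log2 fold change of 0.14 ± 0.13 (SE). *PPARA* was at 7.83, 9.96 and 7.98 CPM in DMSO and 8.90, 7.45 and 7.24 CPM in S541, which overlap, with a log2 fold change of −0.13 ± 0.16 (SE).

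In DMSO, replicate 2 was the highest library for 20 of the 32 members (62.5%, against 38.8% of all tested genes) and replicate 1 the lowest for 18 (56.2%, against 32.9%). In S541, replicate 3 was the highest for 14 members (43.8%, against 39.0%) and the lowest for 13 (40.6%, against 35.3%). Replicate 1 of S541 was the lowest for 13 members (40.6%, against 32.1%) and replicate 2 for 6 (18.75%, against 32.6%). In both DMSO replicate 2 and S541 replicate 3, the libraries that stand apart, 13 members (40.6%, against 22.6% of all tested genes) were at the top of their group. They were *CPT1A*, *CPT2*, *CRAT*, *ACADS*, *ACADVL*, *ACAD9*, *ETFB*, *HADHA*, *HADHB*, *ECHS1*, *ECI1*, *ACAA1* and *PPARD*. Another 7 members (21.9%, the same share as over all tested genes) were lowest in both of these libraries, namely *CROT*, *ACADSB*, *ETFDH*, *ACAA2*, *DECR1*, *EHHADH* and *ABCD3*. Without both of these libraries 0 members changed (edgeR, 7 at an unadjusted p under 0.05), with adjusted p-values of 0.0516 for *HADH* and 0.0757 for *AMACR*, and the median log2 fold change of the members was −0.07.

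**Figure D4:**
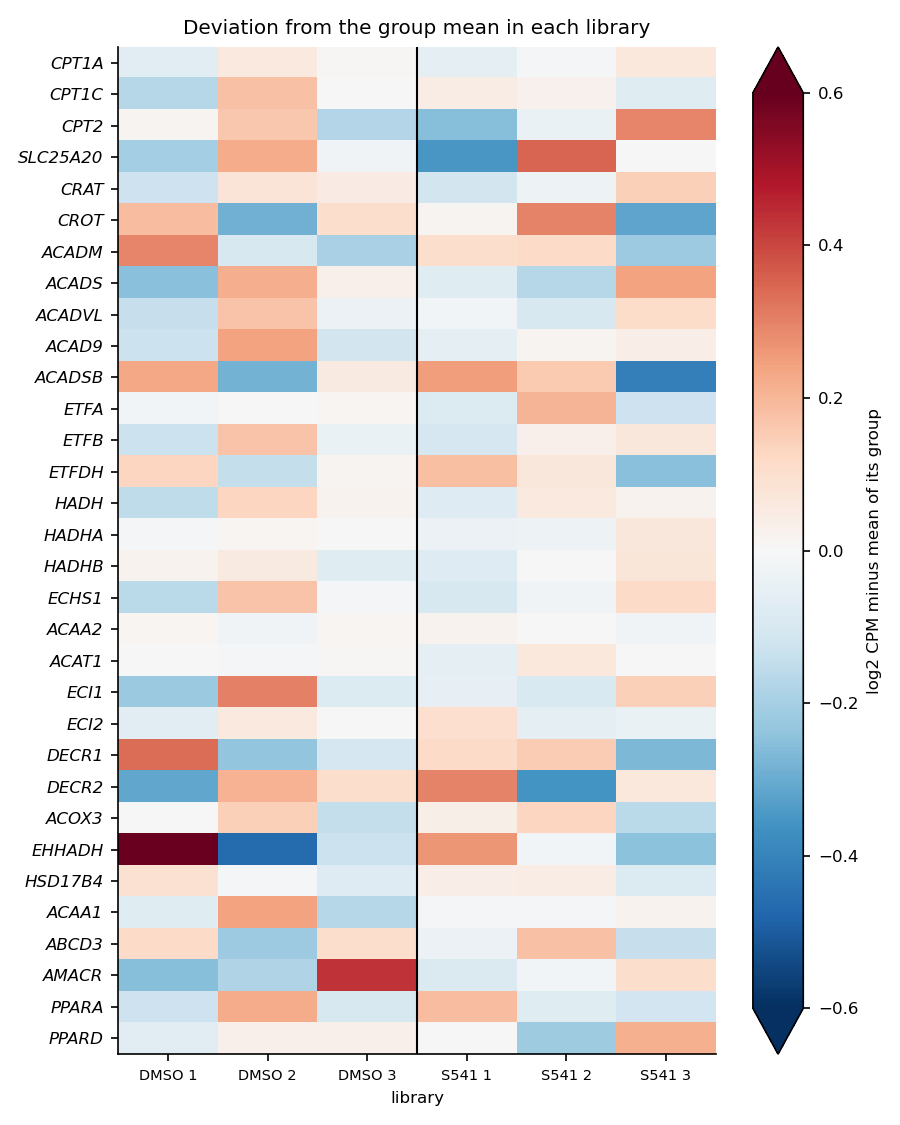
Deviation of each tested member in each library from the mean log2 CPM of its own group (red above, blue below), on a scale from −0.6 to 0.6. In both DMSO 2 and S541 3, 16 members are red, such as ECI1 and ACADS, and 10 are blue, such as ACADSB and CROT, and AMACR is at its reddest in DMSO 3.

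Genes that feed, brake or adjoin beta-oxidation were taken as 9 lists of 131 genes, of which 112 were tested. Of these, 7 rose and 8 fell, which is 13.4% of those tested against 8.19% of all genes, and the median log2 fold change was −0.07. The lists were chosen with earlier results of these data known. That choice may have shaped this share and those of the single lists below, so no excess over all genes is read from them. The calls of these lists in edgeR depended on single libraries. *PLIN2* passed in all 6 fits that left out 1 library. *MGLL*, *PPARG* and *PRKAG2* each passed in 5 of 6, with an adjusted p of 0.0512 without S541 replicate 2, 0.0523 without DMSO replicate 3 and 0.0504 without S541 replicate 1. *ACOT11* lost its call in 3 fits, *ACACA* and *CREB3L3* in 4, and the other 8 in 5 or 6, at adjusted p-values of up to 0.140. The sign of each of these 15 genes was the same in all 6 fits.

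Among the partners and textbook targets of the PPAR receptors, 3 of 14 tested genes rose (21.4%, against 4.02% of all genes) and none fell. *PLIN2*, which coats lipid droplets, was at 40.2, 33.7 and 39.2 CPM in DMSO and 80.1, 63.8 and 73.6 CPM in S541. All S541 libraries were above all DMSO libraries, and *PLIN2* rose by 0.94 ± 0.12 on the log2 scale (SE; edgeR, adjusted p = 0.006). The adipocyte-type receptor *PPARG* was at 37.3, 32.7 and 32.6 CPM in DMSO and 51.2, 53.9 and 57.4 CPM in S541. It rose by 0.66 ± 0.10 (log2, SE; edgeR, adjusted p = 0.010), and *CREB3L3*, a membrane-bound factor of liver lipid metabolism, rose by 1.24 ± 0.25 from 3.23 ± 1.01 to 7.64 ± 1.06 CPM (SD, n = 3). *ANGPTL4*, a lipoprotein lipase inhibitor, was at 65.9, 35.3 and 42.2 CPM in DMSO and 95.9, 71.7 and 97.2 CPM in S541. It did not overlap between the groups and missed the threshold in the full edgeR fit (log2 fold change 0.89, adjusted p = 0.057), while without DMSO replicate 1 the adjusted p was 0.020. *PDK4*, which curbs pyruvate oxidation, had a log2 fold change of 0.29 (edgeR, adjusted p = 0.120), the coactivator *PPARGC1A* −0.19 and the muscle-type *CPT1B* −0.06. Of the *CPT1B* exon bases, 66.4% are shared on the same strand with the readthrough gene *CHKB-CPT1B*, looked up after values had been seen, so the counts of both depend on how shared reads were assigned. *CHKB-CPT1B* had 95, 108 and 127 counts in DMSO and 56, 68 and 48 in S541, with no overlap, and a log2 fold change of −0.87 (edgeR, adjusted p = 0.030). Leaving out any one library other than DMSO replicate 2 ended that call, with adjusted p-values of 0.0622 to 0.110 in edgeR.

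**Figure D5:**
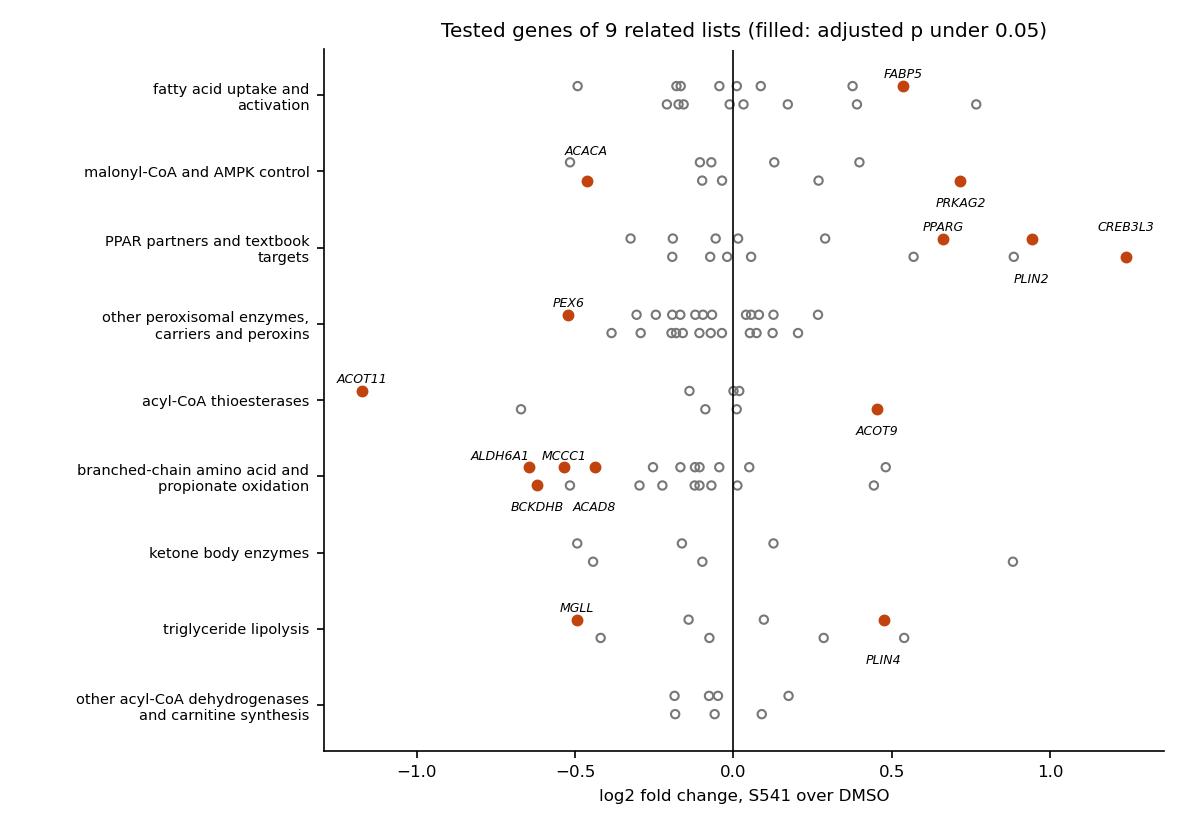
Log2 fold change of S541 over DMSO for the tested genes of 9 related lists, 1 row a list, with filled and named points for an adjusted p under 0.05 and open points for the rest. PLIN2, PPARG and CREB3L3 lie to the right among PPAR partners and targets, and the 4 filled genes of branched-chain amino acid oxidation lie to the left.

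In branched-chain amino acid and propionate oxidation, 4 of 19 tested genes fell (21.1%, against 4.17% of all genes) and none rose. The acyl-CoA dehydrogenases of this pathway also pass electrons to the electron transfer flavoprotein. *BCKDHB*, a subunit of the branched-chain ketoacid dehydrogenase, was at 21.9, 24.0 and 21.1 CPM in DMSO and 15.3, 14.9 and 13.4 CPM in S541, and fell by 0.62 ± 0.12 (log2, SE; edgeR, adjusted p = 0.022). *ALDH6A1*, the methylmalonate semialdehyde dehydrogenase, was at 14.6, 16.6 and 15.1 CPM in DMSO and 9.81, 9.70 and 10.1 CPM in S541, and fell by 0.64 ± 0.12 (log2, SE; edgeR, adjusted p = 0.022). The groups did not overlap for either gene. *MCCC1*, of leucine breakdown, fell by 0.53 and *ACAD8*, the isobutyryl-CoA dehydrogenase, by 0.44 on the log2 scale (edgeR, adjusted p = 0.045 and 0.033). In this list 15 of 19 genes (78.9%, against 50.2% of all genes) had a log2 fold change below 0.

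Malonyl-CoA inhibits CPT1, and AMPK lowers malonyl-CoA. Of 10 tested genes of this control, 1 rose and 1 fell. *ACACA*, the acetyl-CoA carboxylase of the cytosol, was at 210, 229 and 228 CPM in DMSO and 164, 168 and 153 CPM in S541. It fell by 0.46 ± 0.08 (log2, SE; edgeR, adjusted p = 0.016) with no overlap. The mitochondrial form *ACACB* was at 24.7 ± 4.87 and 17.3 ± 1.65 CPM in DMSO and S541 (SD, n = 3), with a log2 fold change of −0.52 and an adjusted p of 0.096 in edgeR. The AMPK subunit *PRKAG2* was at 20.6, 17.8 and 19.3 CPM in DMSO and 33.4, 29.6 and 31.8 CPM in S541. Its groups did not overlap, and it rose by 0.72 ± 0.11 (log2, SE; edgeR, adjusted p = 0.011).

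In triglyceride lipolysis, 1 of 8 tested genes rose and 1 fell. *MGLL*, the monoglyceride lipase, was at 486, 478 and 488 CPM in DMSO and 347, 327 and 357 CPM in S541, and fell by 0.49 ± 0.07 (log2, SE; edgeR, adjusted p = 0.009). The droplet protein *PLIN4* rose by 0.47 ± 0.10 (log2, SE; edgeR, adjusted p = 0.034). Of 8 acyl-CoA thioesterases, *ACOT9* rose by 0.45 and *ACOT11* fell by 1.17 on the log2 scale (edgeR, adjusted p = 0.025 and 0.024), the latter from 9.38 ± 1.70 to 4.15 ± 1.04 CPM (SD, n = 3). Of 16 tested genes of uptake and activation, the fatty acid binding protein *FABP5* rose by 0.54 (edgeR, adjusted p = 0.039), though it has near-identical pseudogenes and how shared reads were assigned is not known. Of 25 other peroxisomal genes, the peroxin *PEX6* fell by 0.52 (edgeR, adjusted p = 0.044). No gene passed among 6 of ketone body metabolism, where *OXCT1* was the most abundant (log2 fold change −0.10), or among 7 other acyl-CoA dehydrogenases and carnitine synthesis genes, where *ALDH9A1* was (−0.06).

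In the authors' deposited table, 32 members had a row, and 2 of them, *HADH* and *AMACR*, had an adjusted p under 0.05, at 0.0124 and 0.0101. None reached a log2 fold change of 1 in size there. The authors' log2 fold changes in that deposited table differed from those given here by at most 0.0032. Their p-values differed more. At an unadjusted p under 0.05 there were 3 members, *HADH*, *AMACR* and *CRAT*, against 8 in the fit here. In the authors' comparison the unadjusted p was 0.202 for *HADHA*, 0.123 for *ACAA2* and 0.171 for *ACAT1*. In the edgeR quasi-likelihood test here it was 0.047, 0.018 and 0.035.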

How the data were processed

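RNA-seq counts of 3 DMSO and 3 S541 libraries were used. Per the file headers, the authors deposited whole-number counts and FPKM for every gene, and the log2 fold changes, p-values and adjusted p-values of their own comparison. The submitters' processing notes name hg38 and edgeR. Not given in the sources used here are the aligner, the counter and any use of strand.

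The deposited counts entered a quasi-likelihood fit in edgeR 4.0.16 under R 4.3.3 (TMM scaling, filterByExpr, group as the only term, glmQLFit and glmQLFTest), 2-sided, with Benjamini-Hochberg adjustment over 15847 genes. The common biological coefficient of variation was 0.163. No pair of libraries within a group agreed within sampling noise. Levels are TMM-scaled CPM. The gene length implied by the deposited FPKM exceeded the merged GENCODE 29 exons in 30 of 32 members (median ratio 1.58), so levels between genes were set per kb of those exons. The test was run on simulated data drawn from these libraries, with 15601 genes, and gave 7 false calls.

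Values in every library were given for members past the threshold and for the most abundant and the most changed member of each role. In each related list up to 4 genes past the threshold were named, or the most abundant where none passed, along with *PDK4*, *ANGPTL4*, *PLIN2*, *CPT1B*, *ACACB* and *PPARGC1A*. Other genes were named after their values were seen. Members and lists were chosen with earlier results of these data known. Alternatives were other scalings and filters, DESeq2 1.42.0, limma 3.58.1 with voom and on log2(FPKM + 0.1), a robust spread, the replicate number as a block, and leaving out libraries. RNA was extracted separately per group, per the labels' protocols. Intervals of counts cover counting error only.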

Additional observations from a re-analysis of the deposited data

How the results depend on the processing

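The counts of changed genes moved with the processing, while the signs of *HADH* and *AMACR* were negative in every fit. DESeq2, both other scalings, the 1 CPM filter, voom and the robust spread called both members. With no filter on low counts 753 of all genes and 1 member (*HADH*) changed. With limma on log2(FPKM + 0.1) 0 members changed (7 at an unadjusted p under 0.05). Leaving out 1 library gave 349 to 1330 changed genes, 0 to 2 members (none without DMSO replicate 3 or any one S541 library) and 3 to 16 related genes. Without DMSO replicate 2 and S541 replicate 3, chosen after seeing the data, 0 members and 8 related genes changed. The labels do not state whether the replicate numbers pair the libraries. Deviations of libraries with the same number had correlations of 0.104, −0.08 and −0.08, which cannot decide this with 3 libraries per group. With the replicate block 392 genes, 0 members (3 at an unadjusted p under 0.05) and 4 related genes changed.

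Log2 fold changes near 0 turned sign when 1 library, or both DMSO replicate 2 and S541 replicate 3, were left out. Over these fits they ran from −0.042 to 0.31 for *SLC25A20* (below 0 without S541 replicate 2), from −0.12 to 0.037 for *ACADVL* (above 0 without DMSO replicate 2 or S541 replicate 2) and from −0.20 to 0.00039 for *ACAD9* (above 0 without DMSO replicate 2). They ran from −0.18 to 0.021 for *ETFDH* (above 0 without S541 replicate 3), from −0.44 to 0.11 for *EHHADH* (above 0 without DMSO replicate 1), and, below 0 without DMSO replicate 1 or S541 replicate 1, from −0.031 to 0.067 for *ECI2* and from −0.039 to 0.28 for *DECR2*. They ran from −0.12 to 0.091 for *ACAA1* (above 0 without DMSO replicate 2, alone or with S541 replicate 3), from −0.096 to 0.073 for *ABCD3* (below 0 without S541 replicate 2, or without DMSO replicate 2, alone or with S541 replicate 3), from −0.22 to 0.047 for *PPARA* (above 0 without DMSO replicate 2 and S541 replicate 3) and from −0.19 to 0.092 for *CPT1B* (above 0 without DMSO replicate 1, S541 replicate 3, or DMSO replicate 2 and S541 replicate 3). The cause was not tested. Depth was low for *EHHADH*, with 19 to 37 counts per library.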
